A study of Mus musculus with 26 samples.

Results

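The genes described here make cholesterol and fatty acids or handle sterols in intestinal epithelium. They are 33 mouse genes, chosen by symbol from the gene tables. They comprise 7 genes of the mevalonate pathway, 11 that carry squalene to cholesterol, 5 of sterol sensing, 6 of sterol transport and storage and 4 of fatty acid synthesis. All 33 were found among 40481 genes in both mouse tables. Their 32 human counterparts, with SCD standing for Scd1 and Scd2, were found among 55093 genes in the human table.

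RNA sequencing had been done on 26 samples, some with Fgfr1op deleted or knocked down and the others their controls. Fgfr1op, also named Cep43 or FOP, encodes a centrosomal protein. Spheroids were grown from small intestine of 4 Fgfr1op KO and 4 WT mice in Matrigel with L-WRN conditioned medium. They were taken at day 3 after 250 nM hydroxytamoxifen in culture. Crypt-enriched cells, released from small intestine with EDTA, came from 6 Fgfr1op KO and 6 WT libraries at days 6 and 9 after tamoxifen, with 3 samples numbered for each genotype and day. Caco-2, a human colorectal adenocarcinoma line, carried a doxycycline-inducible lentiviral hairpin. It was taken at day 3 after doxycycline, with 3 libraries of the hairpin against Fgfr1op, called shFgfr1op here, and 3 of a scramble hairpin. The labels give mouse as the organism of the Caco-2 samples, whereas their table holds human genes. The sources used here do not name the Cre driver, strain or age of the mice, and each Caco-2 group rests on 1 hairpin.

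Cholesterol synthesis begins when acetyl-CoA units are joined and reduced to mevalonate. Mevalonate is turned into isoprenoid units, these into squalene, and squalene is folded and trimmed into cholesterol. Most of these genes are known targets of the SREBP transcription factors, which the sterol sensor Scap escorts out of the endoplasmic reticulum when sterols are scarce and which the Insig proteins hold back when sterols are plentiful. In the small intestine, enterocytes also take up dietary cholesterol through Npc1l1, return it to the lumen through Abcg5 and Abcg8, and esterify it through Soat2.

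The RefSeq table of promoters (GRCm38.p6), which spans 250 bases before to 50 bases after each start, held 26 of the 33 mouse genes. Both strands were searched for TCACNCCAC, a form of the sterol response element to which SREBPs bind, and for CCAAT, the box of the factor NF-Y, known to act with SREBPs. GGGCGG, the Sp1 box, was searched in the same way. TCACNCCAC stood in 1 of the 26 genes, Hmgcs1, against 1.44% of 27025 genes with a promoter in the table. CCAAT stood in 22 of the 26 genes, or 84.6%, against 41.1% of all genes. GGGCGG stood in 20 of the 26, or 76.9%, against 38.2%. A gene counted if any of its windows held the letters, and a match describes letters only.

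Promoters of 4 genes to which the results below return are printed 5′ to 3′ on the gene's own strand. Capitals mark TCACNCCAC and CCAAT, which also appears as its reverse complement ATTGG, and no matches to the 3 motifs overlap in these windows. Hmgcs1, the HMG-CoA synthase that starts the pathway, lies on the plus strand at chr13:119690101-119690400 and shows the sterol response element with 4 CCAAT boxes. Mvk, mevalonate kinase, on the plus strand at chr5:114444019-114444318, holds 5 CCAAT boxes. Cyp51, the lanosterol demethylase, on the minus strand at chr5:4104648-4104947, and Srebf2, which encodes the SREBP that mainly drives cholesterol genes, on the plus strand at chr15:82147019-82147318, hold 1 each.
Hmgcs1: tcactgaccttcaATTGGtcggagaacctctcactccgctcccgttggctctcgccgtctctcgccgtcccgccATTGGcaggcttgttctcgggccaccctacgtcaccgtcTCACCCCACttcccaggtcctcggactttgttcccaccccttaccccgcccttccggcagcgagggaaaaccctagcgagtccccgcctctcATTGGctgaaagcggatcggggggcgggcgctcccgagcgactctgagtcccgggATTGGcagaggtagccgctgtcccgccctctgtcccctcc
Mvk: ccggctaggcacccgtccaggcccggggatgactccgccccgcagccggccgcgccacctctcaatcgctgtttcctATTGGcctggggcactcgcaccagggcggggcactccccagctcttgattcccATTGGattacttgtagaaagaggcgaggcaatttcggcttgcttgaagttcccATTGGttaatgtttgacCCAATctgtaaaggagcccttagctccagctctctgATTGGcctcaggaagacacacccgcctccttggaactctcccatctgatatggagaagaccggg
Cyp51: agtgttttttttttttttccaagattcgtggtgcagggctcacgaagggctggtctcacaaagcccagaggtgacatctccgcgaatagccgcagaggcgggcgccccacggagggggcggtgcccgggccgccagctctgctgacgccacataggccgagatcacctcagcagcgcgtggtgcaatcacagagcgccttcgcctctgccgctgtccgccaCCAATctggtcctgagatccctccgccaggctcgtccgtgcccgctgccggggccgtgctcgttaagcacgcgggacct
Srebf2: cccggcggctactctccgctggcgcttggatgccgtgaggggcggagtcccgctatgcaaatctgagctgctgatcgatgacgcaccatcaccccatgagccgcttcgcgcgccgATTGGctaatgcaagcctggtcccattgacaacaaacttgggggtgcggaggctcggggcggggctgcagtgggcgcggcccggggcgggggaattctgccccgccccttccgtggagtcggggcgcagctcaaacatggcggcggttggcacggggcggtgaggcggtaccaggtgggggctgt

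Library totals ran between 37281821 and 103352863 counts. Values below are CPM, read counts scaled to library size, after scaling by the trimmed mean of M-values (TMM). Differences were tested per table with edgeR's quasi-likelihood test, and p-values were adjusted by Benjamini-Hochberg over all genes tested. A gene is said to have risen or fallen only at an adjusted p below 0.05. Each log2 change comes with its standard error (SE).

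Fgfr1op transcript was lower wherever it was targeted, but remained present. It averaged 17.4 ± 1.98 CPM in KO spheroids and 23.2 ± 1.12 CPM in WT spheroids (SD, n = 4 each), 25.1% lower with no overlap (exact permutation p = 0.0286, two-sided, the smallest that 4 against 4 allows). It averaged 21.1 ± 5.22 CPM in KO crypts and 32.9 ± 6.27 CPM in WT crypts (SD, n = 6 each), 36.1% lower with a slight overlap (exact permutation p = 0.00649, two-sided). FGFR1OP averaged 6.82 ± 0.414 CPM in shFgfr1op cells and 15.7 ± 0.208 CPM in scramble cells (SD, n = 3 each), 56.5% lower (exact permutation p = 0.1, two-sided, the smallest possible). By edgeR the adjusted p was 0.117 in spheroids, 0.0261 in crypts and 1.65e-14 in Caco-2. These checks cover whole-gene counts, and the sources used here do not name the deleted part of the gene.

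Crypt libraries are numbered as their columns are. The columns give the genotype but not the day, so both days stand together. KO libraries 4, 5 and 6 lay apart from the other 9 on the first principal component of the 2000 most variable genes, at -84.4 to -104.2 against -0.967 to 47.1, a component that held 68.7% of the variance. Summed CPM of 10 enterocyte markers was 5263, 2278 and 4389 in KO 4, 5 and 6, between 12050 and 21210 in KO 1 to 3, and between 11150 and 28920 in the 6 WT libraries. Of these 10 markers 0 rose and 3 fell, Sis, Dpp4 and Slc5a1. Over all genes tested in crypts 14.0% rose and 10.5% fell. Summed CPM of 6 stem cell markers was between 63.7 and 81.3 in KO 4 to 6, between 520.4 and 1001 in KO 1 to 3, and between 889.5 and 2112 in WT libraries. Summed CPM of 5 Paneth cell markers was 7449, 11160 and 6956 in KO 4, 5 and 6, between 33880 and 47290 in KO 1 to 3, and between 31390 and 77580 in WT libraries. Goblet cell markers summed to 5965 to 9155 CPM in KO and 8738 to 13320 CPM in WT crypts, and immune cell markers to 131.7 to 321.9 CPM in KO and 289.6 to 522.3 CPM in WT crypts. No marker of these 5 lists was at 0 in every library. By edgeR 0 of 6 stem cell, 0 of 5 Paneth cell and 0 of 7 goblet cell markers passed, with 1, 2 and 4 at an unadjusted p below 0.05. Log2 changes were positive for 2 stem cell, 0 Paneth cell and 1 goblet cell markers. A sum of CPM weighs its most abundant genes most and need not hold for each marker. The log2 changes of the 6 stem cell markers ran from -1.92 to 0.34, with a median of -0.47. Of 9 immune cell markers 1 rose and 1 fell, and 4 log2 changes were positive. These calls made 22.2% of the list, near the 24.5% of all genes tested. Of 4 tuft cell markers tested 0 rose and 2 fell. Summed CPM of 6 enteroendocrine cell markers was 215.3, 190.4 and 145.5 in KO 4, 5 and 6. It was between 323.8 and 447.5 in KO 1 to 3 and between 254.2 and 514.6 in WT libraries. By edgeR 0 of these 6 passed, with 2 at an unadjusted p below 0.05. Summed CPM of 7 general epithelial markers was 6578 to 11570 in KO and 4307 to 6595 in WT crypts, and Krt8 and Krt18 among them rose. In bulk RNA, fewer cells of a type and less RNA per cell cannot be told apart, and the part these markers have in the results below was not tested. The genes that passed in crypts are therefore also given without KO 4 to 6. The labels give 3 KO samples as day 9, and the columns do not show whether these are KO 4 to 6. If they are, the fit without them sets KO libraries of day 6 against WT libraries of days 6 and 9.

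In crypts, KO libraries held more transcript of Srebf1, Srebf2 and Scap and of a few steps of sterol synthesis, and less of Dhcr7 and Stard4, than WT libraries. Of the 33 genes 8 rose, where 14.0% of 16413 genes tested did: Mvk, Sqle, Cyp51, Hsd17b7, Srebf1, Srebf2, Scap and Fasn. Only Dhcr7 and Stard4 fell, where 10.5% of all genes tested did. In both directions together 24.5% of all genes were called. The median log2 change over the 33 was 0.04, beside 0.05 over all genes tested. The groups did not overlap for 2 genes, Scap and Stard4, where 10.6% of all genes did not overlap. Without KO 4 to 6, edgeR called 0 of the 33, with 6 at an unadjusted p below 0.05, and no other tool was run on those 9 libraries. Of 16924 genes tested in that fit, 460 rose, 464 fell and 3913 had an unadjusted p below 0.05.

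**Figure D1:**
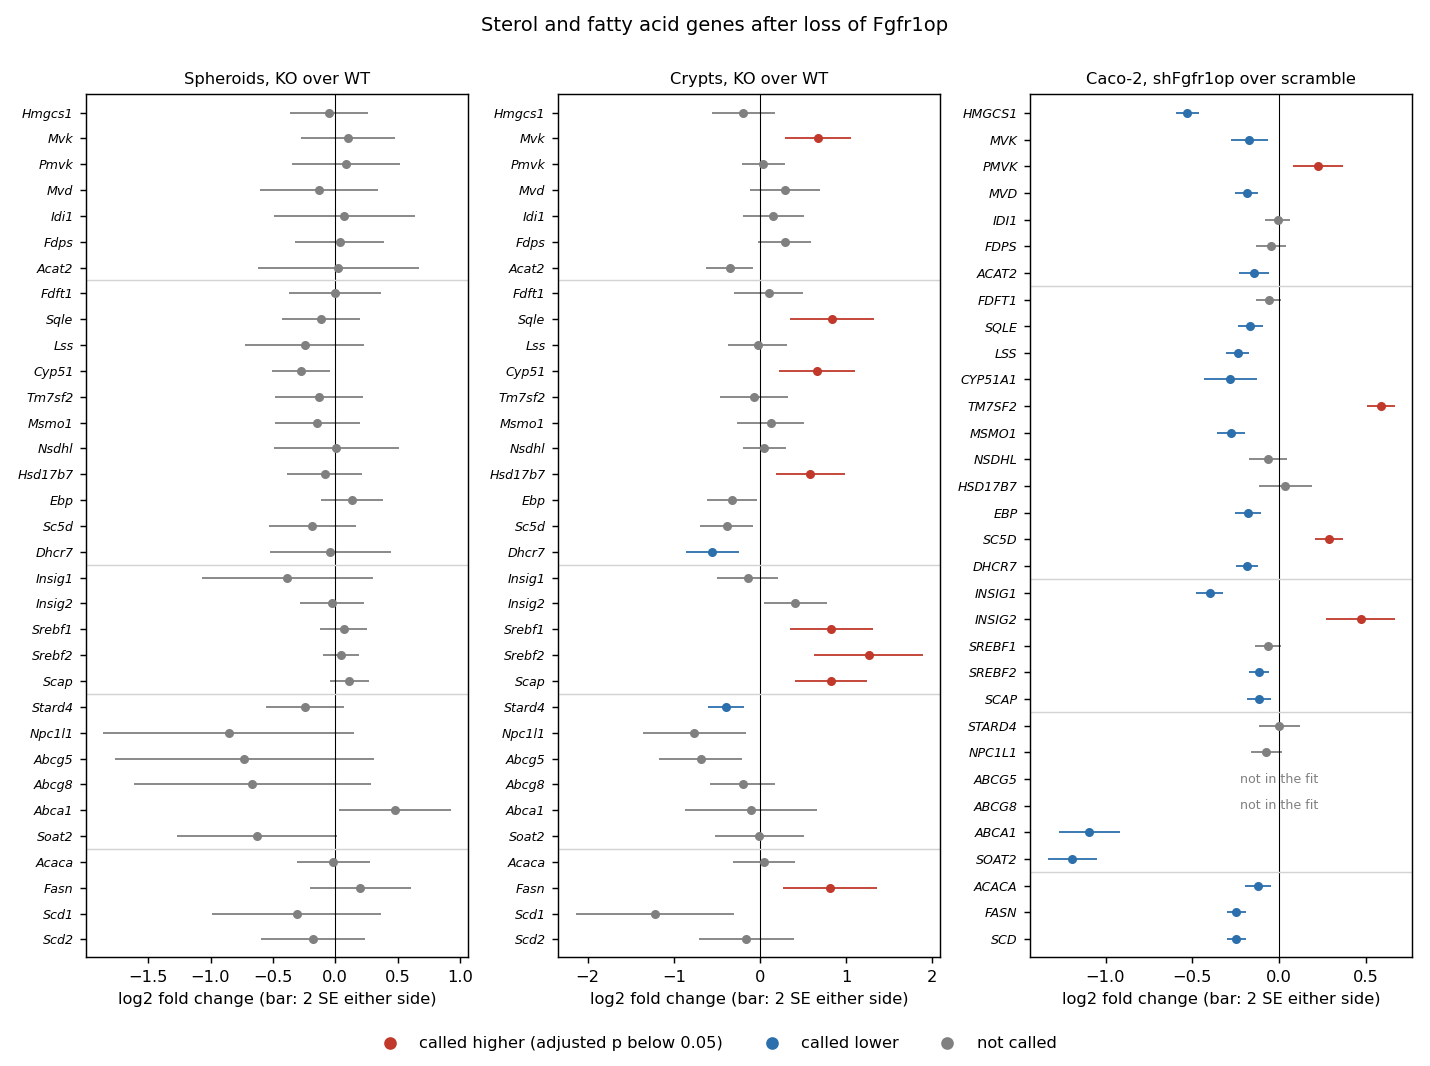
Log2 fold change of each gene (x axis) in spheroids, crypts and Caco-2, KO over WT or shFgfr1op over scramble, with bars of 2 SE either side and genes ordered by role. Red points rose and blue points fell at an adjusted p below 0.05, 0 genes in spheroids, 10 in crypts and 22 in Caco-2, and grey points did not pass.

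Of the 5 sterol sensing genes 3 rose, where 14.0% of all genes tested did. Srebf2, a gene of the plus strand at chr15:82147181-82205379 (GRCm38), ranged from 48.4 CPM, with a median of 88.5, up to 124.0 CPM in KO crypts, and from 19.1 CPM, with a median of 32.7, up to 58.9 CPM in WT crypts. KO 4, 5 and 6 held its 3 highest values, and only 2 of the WT libraries reached above the lowest KO library. Its log2 change was 1.26 ± 0.32 (SE, adjusted p = 0.0133), or 2.40-fold. Srebf1, whose product drives mainly fatty acid genes, ranged over 10.9, 23.0 and 28.2 CPM (lowest, median, highest) in KO crypts and over 7.79, 11.7 and 15.4 CPM in WT crypts. Only KO 3 lay among the WT values, and the log2 change was 0.83 ± 0.24 (SE, adjusted p = 0.0234). Scap ranged over 6.99, 8.32 and 15.3 CPM in KO crypts and over 3.90, 5.70 and 6.22 CPM in WT crypts. Its groups did not overlap, KO 1 stood highest, and the log2 change was 0.82 ± 0.21 (SE, adjusted p = 0.0135). Insig1 and Insig2, the retention proteins, did not pass, at log2 changes of -0.14 ± 0.18 and 0.41 ± 0.18 (SE).

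Without KO 4 to 6 the log2 change of Srebf2 was 0.70 ± 0.32 (SE, adjusted p = 0.209), that of Srebf1 0.53 ± 0.27 (adjusted p = 0.262) and that of Scap 0.90 ± 0.26 (adjusted p = 0.053). The value for Scap was thus as large without these libraries as with them. All 3 genes are GC-rich, with 57.9% to 59.1% GC in their exons. Over all genes tested in crypts, the 3282 genes richest in GC had a median log2 change of 0.31 and the 3282 poorest one of -0.06. With a correction for GC content and length, Srebf2 had a log2 change of 0.99 ± 0.26 (adjusted p = 0.016) and Srebf1 one of 0.51 ± 0.18 (adjusted p = 0.0474). Scap, at 0.46 ± 0.18 (adjusted p = 0.0724), and Fasn, at 0.57 ± 0.21 (adjusted p = 0.0651), no longer passed. Exons of Cyp51, Srebf1 and Scap overlap exons of a gene on the other strand. For Cyp51 this gene is Akap9, over 166 bases, and for Srebf1 it is Rai1, over 109 bases. For Scap it is 5830462I19Rik, and this overlap is the longest of the 3. The sources used here do not say whether counting used strand, so reads of these 3 genes may include the neighbour's.

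**Figure D2:**
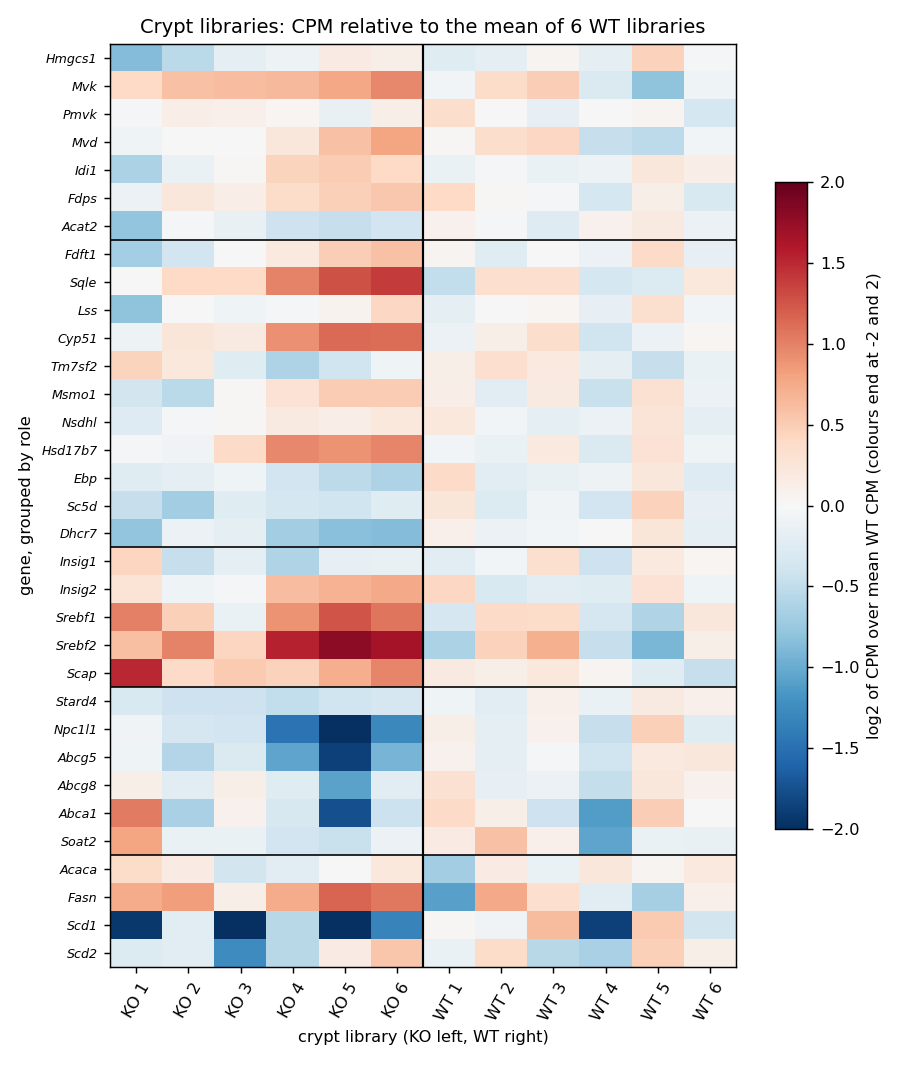
Log2 of CPM over the mean of the 6 WT crypt libraries for the 33 genes (rows, grouped by role) in 6 KO and 6 WT crypt libraries (columns). Srebf2, Sqle, Cyp51 and Hsd17b7 have their reddest cells in KO 4, 5 and 6, where Npc1l1 and Abcg5 have their bluest, and colours end at -2 and 2.

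In the mevalonate pathway 1 of 7 genes rose, or 14.3%, near the 14.0% of all genes tested. Mvk ranged over 38.6, 45.6 and 57.3 CPM (lowest, median, highest) in KO crypts and over 16.8, 28.1 and 41.4 CPM in WT crypts. WT 3 alone reached the KO values, and the log2 change was 0.67 ± 0.19 (SE, adjusted p = 0.0217). Leaving out KO 4 to 6 it was 0.54 ± 0.23 (SE, adjusted p = 0.183). Hmgcs1, which has the sterol response element printed above, ranged over 197.5, 325.9 and 403.2 CPM in KO crypts and over 306.3, 335.5 and 498.9 CPM in WT crypts. Its groups overlapped widely, at a log2 change of -0.19 ± 0.18 (SE, adjusted p = 0.462). Acat2, the cytosolic thiolase that feeds the pathway, had a log2 change of -0.35 ± 0.14 (adjusted p = 0.0712). Pmvk, Mvd, Idi1 and Fdps, which carry mevalonate on to farnesyl diphosphate, did not pass, with log2 changes between 0.04 for Pmvk and 0.29 for Mvd.

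Of the 11 genes from squalene to cholesterol, 3 rose and 1 fell, or 36.4%, where 24.5% of all genes tested were called. Sqle, the squalene epoxidase, ranged over 124.9, 207.1 and 330.8 CPM (lowest, median, highest) in KO crypts and over 88.8, 123.4 and 157.9 CPM in WT crypts. Its 3 highest values were those of KO 4, 5 and 6, at 249.6, 300.6 and 330.8 CPM, while KO 2 and KO 3 lay just above the highest WT library, and KO 1 lay near the WT median. The log2 change was 0.83 ± 0.25 (SE, adjusted p = 0.025). Cyp51 ranged over 98.8, 163.3 and 233.7 CPM in KO crypts and over 80.1, 103.6 and 135.9 CPM in WT crypts, again highest in KO 4, 5 and 6. Its log2 change was 0.66 ± 0.22 (SE, adjusted p = 0.0407). Hsd17b7, a ketoreductase of the pathway, was highest in the same 3 libraries, at 74.2 ± 23.8 CPM in KO crypts and 49.4 ± 7.57 CPM in WT crypts (SD, n = 6 each) and a log2 change of 0.59 ± 0.20 (SE, adjusted p = 0.0462). Without KO 4 to 6 the log2 change was 0.28 ± 0.21 for Sqle, 0.12 ± 0.18 for Cyp51 and 0.11 ± 0.18 for Hsd17b7 (SE).

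Dhcr7, the reductase of the last step to cholesterol, went the other way. It ranged over 68.8, 74.6 and 114.5 CPM (lowest, median, highest) in KO crypts and over 109.1, 121.9 and 147.9 CPM in WT crypts. KO 2 overlapped the WT libraries, KO 3 lay just under the lowest of them, and the other 4 KO libraries lay well below. Its log2 change was -0.55 ± 0.15 (SE, adjusted p = 0.0201), and -0.34 ± 0.18 (adjusted p = 0.264) without KO 4 to 6. Ebp, the sterol isomerase, and Sc5d, the sterol desaturase just before Dhcr7, had log2 changes of -0.33 ± 0.14 (adjusted p = 0.11) and -0.39 ± 0.15 (adjusted p = 0.0766). Fdft1, Lss, Tm7sf2, Msmo1 and Nsdhl did not pass, with log2 changes between -0.07 for Tm7sf2 and 0.13 for Msmo1.

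**Figure D3:**
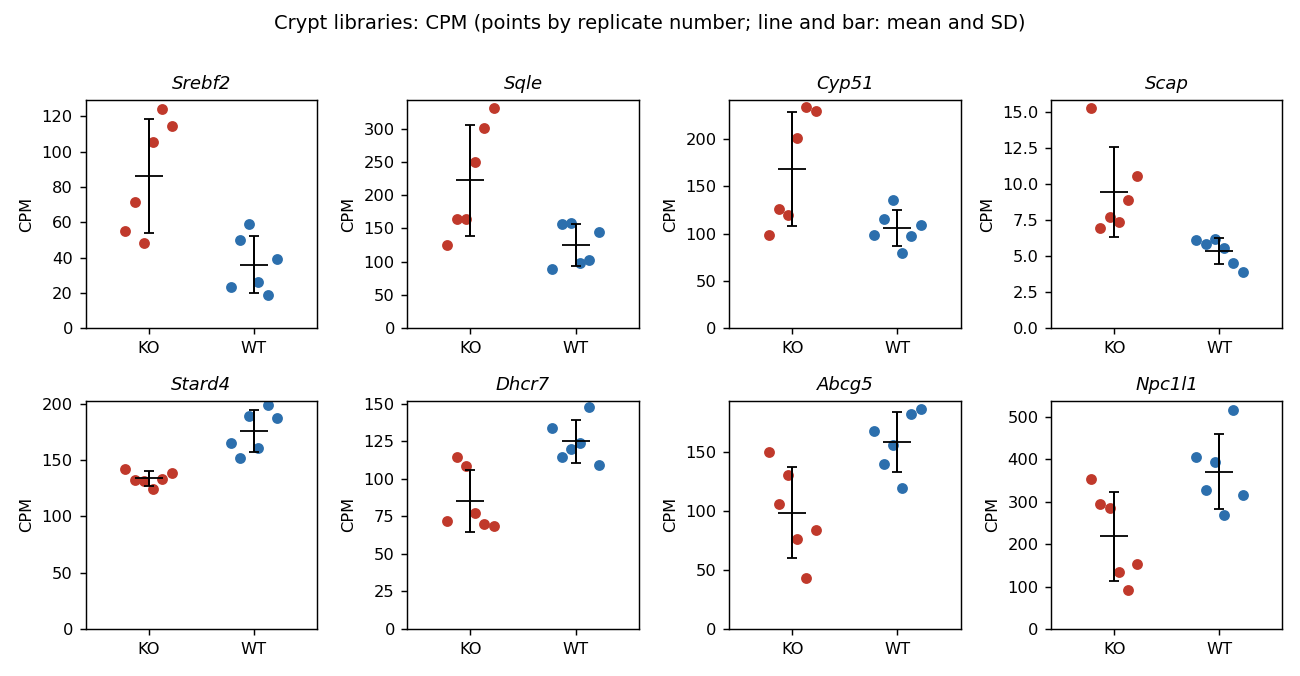
CPM of 8 genes in 6 KO and 6 WT crypt libraries, with points in order of replicate number and the mean and SD in black. Srebf2, Sqle and Cyp51 are highest in the right-hand 3 KO points, Npc1l1 and Abcg5 are lowest there, and the groups of Scap and Stard4 do not overlap.

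Of the 6 genes of sterol transport and storage 0 rose and 1 fell by edgeR, with 3 at an unadjusted p below 0.05. All 6 log2 changes were negative. The call made 16.7% of the 6, where 24.5% of all genes tested were called. Stard4, a cytosolic sterol carrier, ranged over 124.3, 132.6 and 142.3 CPM (lowest, median, highest) in KO crypts and over 152.2, 176.2 and 199.2 CPM in WT crypts. Every KO library lay below every WT library, at a log2 change of -0.39 ± 0.10 (SE, adjusted p = 0.016). Its log2 change was -0.37 ± 0.15 (adjusted p = 0.156) without KO 4 to 6. Npc1l1, the importer of luminal cholesterol, had 134.2, 91.5 and 152.3 CPM in KO 4, 5 and 6, against 284.6 to 353.3 CPM in KO 1 to 3 and 270.0 to 517.8 CPM in WT crypts. Abcg5 had 76.3, 43.3 and 83.5 CPM in KO 4, 5 and 6, against 105.9 to 149.3 CPM in KO 1 to 3 and 119.6 to 186.0 CPM in WT crypts. These 3 KO libraries were the lowest of all 12 for both genes, as they were for the sums of enterocyte, stem cell, Paneth cell and enteroendocrine cell markers. Abcg8 did not share this order, at 131.1, 74.1 and 132.0 CPM in KO 4, 5 and 6 and 110.8 CPM in WT 4. Over all 12 libraries the log2 change was -0.77 ± 0.30 (SE, adjusted p = 0.0761) for Npc1l1 and -0.69 ± 0.24 (adjusted p = 0.0503) for Abcg5. Without KO 4 to 6 it was -0.25 ± 0.20 for Npc1l1 and -0.30 ± 0.18 for Abcg5 (SE). DESeq2 called both lower over all 12, at adjusted p = 0.0418 for Npc1l1 and 0.0291 for Abcg5. Abcg8, the partner of Abcg5, Abca1, a basolateral exporter, and Soat2 had log2 changes of -0.20 ± 0.19, -0.10 ± 0.39 and -0.01 ± 0.26 (SE). With KO 4 to 6 left out, the log2 changes of these genes were positive, at 0.02 ± 0.18, 0.32 ± 0.37 and 0.24 ± 0.30 (SE). Of the 2 Abcg8 promoter windows in the RefSeq table, 1 shares 209 bases with that of Abcg5, which lies on the other strand.

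Of the 4 fatty acid synthesis genes 1 rose, where 14.0% of all genes tested did. Fasn, the fatty acid synthase, ranged over 30.0, 47.9 and 62.2 CPM (lowest, median, highest) in KO crypts and over 13.1, 26.7 and 46.9 CPM in WT crypts. The groups overlapped, and the log2 change was 0.81 ± 0.27 (SE, adjusted p = 0.0442). Acaca, the carboxylase before it, had a log2 change of 0.05 ± 0.18. The desaturase Scd1 averaged 2.33 ± 1.53 CPM in KO crypts and 5.44 ± 2.53 CPM in WT crypts (SD, n = 6 each), at a log2 change of -1.22 ± 0.46 (adjusted p = 0.0669). Its paralog Scd2, with which reads may be shared, averaged 151.4 ± 61.4 CPM in KO crypts and 169.2 ± 52.7 CPM in WT crypts, with a log2 change of -0.16 ± 0.28. Among the other 9 libraries, KO 4 to 6 left out, the log2 change of Fasn was 0.60 ± 0.33 (SE, adjusted p = 0.302).

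Srebf2, Scap, Dhcr7 and Stard4 passed in each of the 12 fits that left out 1 library. Mvk passed in 9, Srebf1 in 7, Sqle in 6, Cyp51 in 4, and Hsd17b7 and Fasn in 2 each. The number of genes that rose was 2 without KO 6, WT 1 or WT 4, 3 without KO 5 or WT 5, 4 without KO 4 and 5 without WT 6. The number that fell was 4 without KO 1, KO 2 or KO 3 and 5 without WT 4. Hsd17b7 did not pass by DESeq2 (adjusted p = 0.0546) or by edgeR with RLE size factors in place of TMM (adjusted p = 0.0583). Y-linked genes held more than 500 reads in 2 crypt libraries, 1 KO and 1 WT. With sex as a covariate in edgeR, 6 genes rose and 2 fell. Hsd17b7 (adjusted p = 0.0581) and Fasn (adjusted p = 0.0542) did not pass in that fit.

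In Caco-2 cells most of the genes that passed were lower in shFgfr1op cells. Of the 32 genes, ABCG5 and ABCG8 were near 0 in all 6 libraries and not in the fit, and of the 30 tested 18 fell and 4 rose. These counts compare with 16.2% of 18905 genes tested that fell, 15.7% that rose and 31.9% called in all. The median log2 change over the 30 was -0.13, beside -0.01 over all genes tested. The groups did not overlap for 23 genes, 19 of them lower and 4 higher in shFgfr1op cells, where 42.4% of all genes did not overlap. No label says that the 3 libraries of a group were separate cultures, so these p-values measure only the spread between libraries, which may be technical.

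Sterol transport and storage held the 2 largest changes. SOAT2, which stores cholesterol as esters, had 14.9, 18.3 and 14.8 CPM in shFgfr1op cells, against 38.1, 35.6 and 36.0 CPM in scramble cells. The groups stood far apart, at a log2 change of -1.19 ± 0.07 (SE, adjusted p = 7.17e-18). ABCA1 had 39.3, 34.2 and 45.0 CPM in shFgfr1op cells, against 80.8, 83.1 and 89.6 CPM in scramble cells. It too did not overlap, at a log2 change of -1.09 ± 0.09 (SE, adjusted p = 1.14e-05). STARD4 and NPC1L1 did not pass, at log2 changes of 0.0017 ± 0.06 and -0.07 ± 0.04 (SE), so that intervals of 2 SE either side ran from -0.12 to 0.12 for STARD4 and from -0.16 to 0.02 for NPC1L1.

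**Figure D4:**
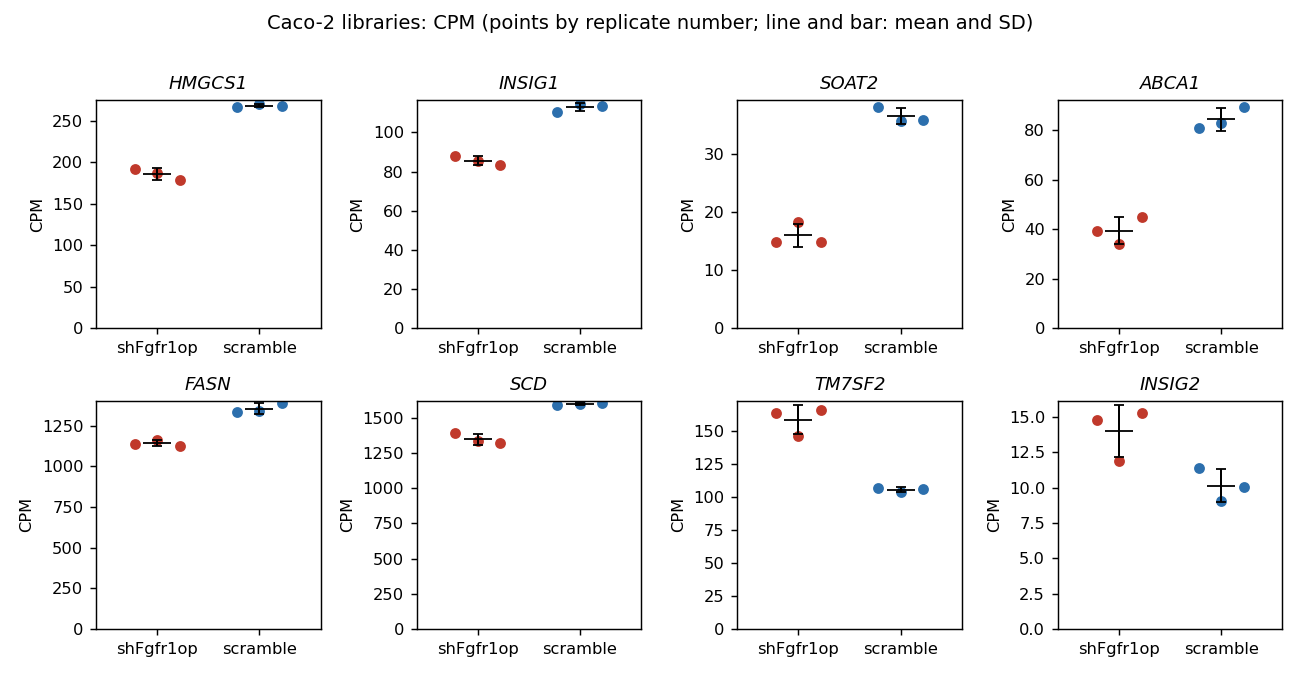
CPM of 8 genes in 3 shFgfr1op and 3 scramble Caco-2 libraries, with points in order of replicate number and the mean and SD in black. The 3 shFgfr1op points lie below the 3 scramble points for HMGCS1, INSIG1, SOAT2, ABCA1, FASN and SCD, and above them for TM7SF2 and INSIG2.

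Of the 18 genes of cholesterol synthesis, from acetyl-CoA to cholesterol, 10 fell and 3 rose, where 16.2% of all genes tested fell and 15.7% rose. HMGCS1 had 192.4, 186.9 and 178.5 CPM in shFgfr1op cells, against 266.8, 270.6 and 267.8 CPM in scramble cells. The groups stood far apart for their spread, at a log2 change of -0.53 ± 0.03 (SE, adjusted p = 1.0e-17). CYP51A1 and MSMO1, the demethylase and the methyl oxidase that follow lanosterol, had log2 changes of -0.28 ± 0.08 and -0.28 ± 0.04 (SE). LSS, which closes the sterol rings, had -0.24 ± 0.03, and MVD, DHCR7, EBP, MVK, SQLE and ACAT2 fell by 0.14 to 0.18 on the log2 scale. TM7SF2, a sterol reductase, went against them with 163.5, 145.7 and 166.0 CPM in shFgfr1op cells and 107.0, 103.3 and 106.0 CPM in scramble cells. Its log2 change was 0.59 ± 0.04 (SE, adjusted p = 2.55e-15), and SC5D and PMVK rose too, by log2 changes of 0.29 ± 0.04 and 0.23 ± 0.07. IDI1, FDPS, FDFT1, NSDHL and HSD17B7 did not pass, with log2 changes between -0.06 and 0.04.

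The sensing genes split. INSIG1, itself a known SREBP target, had 87.9, 85.3 and 83.5 CPM in shFgfr1op cells, against 110.5, 114.5 and 113.5 CPM in scramble cells, at a log2 change of -0.40 ± 0.04 (SE, adjusted p = 1.11e-11). INSIG2 had 14.8, 11.9 and 15.3 CPM in shFgfr1op cells, against 11.4, 9.03 and 10.0 CPM in scramble cells, at a log2 change of 0.47 ± 0.10 (SE, adjusted p = 0.000203). Neither gene's groups overlapped. SREBF2 and SCAP fell by 0.12 each on the log2 scale, and SREBF1 did not pass, at -0.06 ± 0.04 (SE). All 3 fatty acid genes fell, where 16.2% of all genes tested did. FASN had 1138, 1162 and 1128 CPM in shFgfr1op cells, against 1333, 1342 and 1392 CPM in scramble cells, and SCD had 1391, 1335 and 1318 CPM in shFgfr1op cells, against 1591, 1602 and 1607 CPM in scramble cells. Neither gene's values overlapped between the groups. Both had a log2 change of -0.25 ± 0.03 (SE), and ACACA one of -0.12 ± 0.04.

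Markers moved in these cells as well. Of 9 enterocyte markers tested, 8 fell and ALPI rose, and their summed CPM was 283.3 to 294.7 in shFgfr1op cells and 445.8 to 454.0 in scramble cells. Of 5 stem cell markers tested, 4 rose, among them LGR5 with a log2 change of 1.48, and 0 fell by edgeR, with 4 of the 5 at an unadjusted p below 0.05. OLFM4 was at 0 in all 3 shFgfr1op libraries. All 3 goblet cell markers tested fell, as did 3 of 6 general epithelial, 1 of 2 Paneth cell and 1 of 4 immune cell markers. Of 5 markers of stroma and endothelium 1 rose and 3 fell, and of 4 cycling cell markers 2 rose. The 1 enteroendocrine and 1 tuft cell marker tested did not pass. Over all genes tested 31.9% were called. The part of these markers in the sterol gene results was not tested. In the 6 fits that left out 1 library, MVK passed in 3, ACACA in 4, and CYP51A1 and SCAP in 5, and the other 18 called genes passed in all 6.

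In spheroids none of the 33 genes passed. By edgeR 0 of 33 were called, where 0.232% of 15915 genes tested were, and 1, Cyp51, had an unadjusted p below 0.05. DESeq2 and voom also called 0, with 2 genes each at an unadjusted p below 0.05. The groups overlapped for all 33 genes, where 8.56% of all genes tested did not overlap. The median log2 change was -0.05, beside -0.0018 over all genes, with 12 positive and 21 negative. Leaving out 1 library moved this median to between -0.17, without KO 2, and 0.06, without WT 1, and 13 of the 33 genes changed sign without WT 1. It was also positive without KO 3, at 0.0095, and was -0.14 without KO 1, -0.12 without WT 3 and -0.16 without WT 4. For Cyp51, KO spheroids had 256.7, 264.5, 223.7 and 234.2 CPM, against 371.1, 297.1, 264.2 and 251.1 CPM in WT spheroids. The groups overlapped, at a log2 change of -0.27 ± 0.12 (SE, adjusted p = 0.319). For Srebf2 the interval of 2 SE either side of the log2 change ran from -0.10 to 0.19, for Scap from -0.05 to 0.27, for Sqle from -0.43 to 0.20 and for Dhcr7 from -0.53 to 0.45.

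The spheroid libraries differed among themselves in a shared way. WT 1 lay apart on the first principal component, which held 29.4% of the variance, at -41.98 against -10.1 to 20.1 in the other 7. Every KO library, at 3.89 to 20.1, lay above every WT library on it, the highest of which was WT 4 at 0.96. Of the 18 cholesterol synthesis genes, 14 were highest in WT 1 and 4 in KO 2, and 11 were lowest in KO 3, 6 in WT 4 and 1 in KO 4. The mean log2 ratio of these 18 genes to the WT mean was 0.10, 0.22, -0.44 and -0.19 in KO 1 to 4 and 0.41, 0.02, -0.18 and -0.39 in WT 1 to 4. Each genotype thus held both high and low libraries. The sterol transporters had an order of their own. Npc1l1 had 14.8, 19.1, 27.6 and 24.7 CPM in KO spheroids, against 77.6, 16.9, 42.9 and 19.0 CPM in WT spheroids, and Abcg5 had 4.45, 7.84, 17.2 and 9.41 CPM in KO spheroids, against 28.9, 8.52, 18.6 and 8.65 CPM in WT spheroids. WT 1 was highest for both genes. The summed CPM of 10 enterocyte markers was 341.4, 434.1, 640.3 and 628.6 in KO spheroids and 743.3, 379.4, 584.3 and 399.0 in WT spheroids, also highest in WT 1. Without WT 1 the log2 change was -0.29 ± 0.34 for Npc1l1, -0.29 ± 0.45 for Abcg5 and -0.15 ± 0.09 for Cyp51 (SE), against -0.86 ± 0.50, -0.73 ± 0.52 and -0.27 ± 0.12 with it, and edgeR called 0 of the 33 genes, with 0 at an unadjusted p below 0.05.

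The difference between the crypt effect and the spheroid effect was tested in 1 fit of both mouse tables. By edgeR 0 of the 33 genes passed, where 2.86% of 18485 genes tested did, and 7 had an unadjusted p below 0.05. No other tool was run for it. The smallest adjusted p were those of Cyp51, whose log2 change was 0.88 ± 0.30 (SE) larger in crypts (adjusted p = 0.105), and of Srebf2, 1.16 ± 0.41 larger (adjusted p = 0.115). Scap followed at 0.66 ± 0.26 (adjusted p = 0.15) and Sqle at 0.89 ± 0.35 (adjusted p = 0.151). For Lpin1, a phosphatidate phosphatase outside the 33, the difference did pass, at -1.49 ± 0.37 (SE, adjusted p = 0.0368). The rise of Cyp51, Srebf2, Scap and Sqle in crypts is therefore not shown to differ from their change in spheroids. The difference between crypts and Caco-2 was not tested, since the species differ.

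The share of the 33 genes that differed between WT spheroids and WT crypts was close to that of all genes. Of the 33 genes 11 were higher in WT spheroids, where 37.8% of 18485 genes tested were, and 16 were lower, where 43.9% were. Together 27 of 33 were called, where 81.7% of all genes were. The median log2 difference over all genes was -0.22, and over the 33 it was -0.35. Culture, preparation, tissue makeup, day, drug (hydroxytamoxifen in culture or tamoxifen) and table cannot be told apart here. All 10 enterocyte markers were lower in WT spheroids.

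All 4 fatty acid genes and 4 of the 5 sensing genes were higher in WT spheroids, where 37.8% of all genes tested were. Srebf2 averaged 430.0 ± 30.9 CPM in WT spheroids and 42.0 ± 19.0 CPM in WT crypts (SD, n = 4 and 6) in the joint scaling, at a log2 difference of 3.36 ± 0.30 (SE, adjusted p = 2.14e-09). Scap had a log2 difference of 3.69, Srebf1 of 3.24, Scd2 of 2.91, Fasn of 2.87 and Acaca of 2.15. Scd1 had the largest of the 33, at 169.0 ± 70.6 CPM in WT spheroids and 6.34 ± 3.00 CPM in WT crypts (SD, n = 4 and 6) and a log2 difference of 4.74 ± 0.50 (SE, adjusted p = 5.11e-08). With the correction for GC content and length these differences were smaller for the GC-rich genes, at 1.79 for Srebf2, 1.98 for Scap, 1.73 for Srebf1 and 0.91 for Fasn. Scd1, which is not GC-rich at 47.1% GC, had 4.38, and all of these genes still passed. Under the same correction Mvd, at 0.31 ± 0.21 (SE, adjusted p = 0.177), did not pass.

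The 4 membrane transporters were lower in WT spheroids, where 43.9% of all genes tested were. Npc1l1 averaged 30.9 ± 22.01 CPM in WT spheroids and 431.7 ± 104.5 CPM in WT crypts (SD, n = 4 and 6), at a log2 difference of -3.81 ± 0.48 (SE, adjusted p = 4.95e-07). Abcg5, Abcg8 and Abca1 had log2 differences of -3.85, -3.80 and -3.23, while Stard4 and Soat2 did not pass. Of the 18 cholesterol synthesis genes, 11 were lower in WT spheroids, 3 were higher and 4 did not pass. Together 77.8% of the 18 were called, where 81.7% of all genes tested were. Among the 18, Ebp had the largest difference, at -2.13 ± 0.16, followed by Acat2 at -1.84 ± 0.23 and Sc5d at -1.83 ± 0.18 (SE). Mvd, Cyp51 and Tm7sf2 were the 3 higher ones, at 1.22, 0.93 and 0.57.

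**Figure D5:**
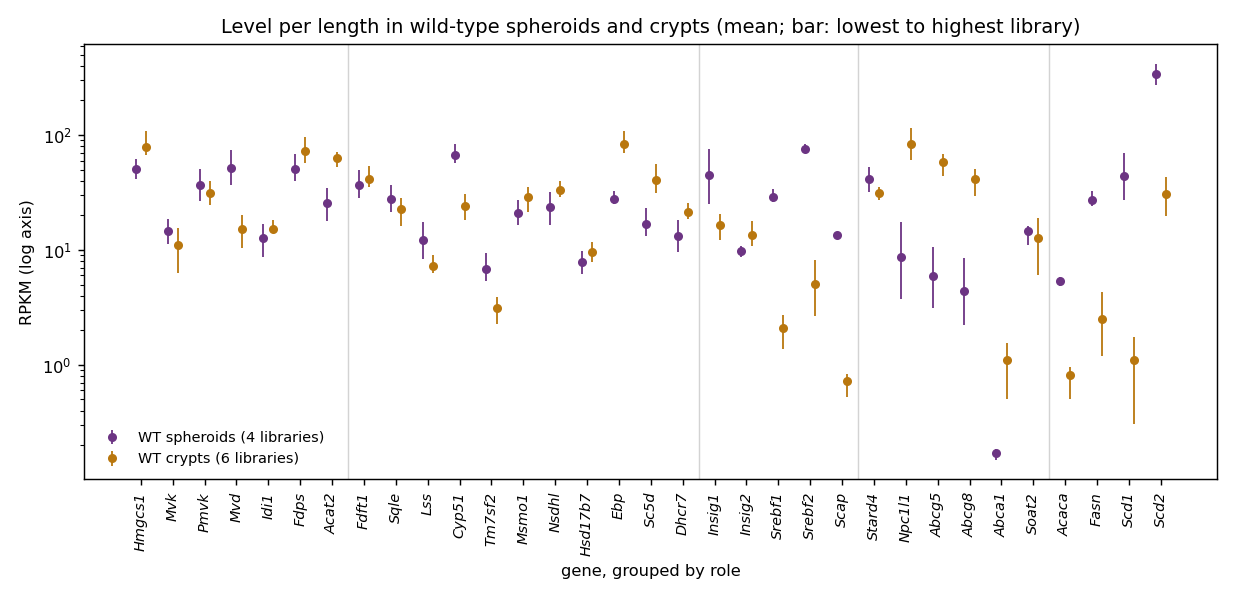
RPKM, read counts scaled for exon length and library size (log axis), of the 33 genes, grouped by role, in 4 WT spheroid and 6 WT crypt libraries, with the mean and a bar from the lowest to the highest library. Scd2 is highest in WT spheroids at 342.3 RPKM, Ebp and Npc1l1 are highest in WT crypts at 83.4 and 83.2 RPKM, and Srebf2, Scap, Srebf1 and Fasn are lower in WT crypts. Spheroid and crypt libraries were scaled separately here, unlike in the joint scaling of the tested differences.

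RPKM over merged exons of the GENCODE M21 annotation were scaled within spheroids and within crypts, not jointly. They rank genes within each group and do not measure the difference between spheroids and crypts. Per length, the leading gene of WT spheroids was Scd2, at 342.3 ± 77.9 RPKM. Srebf2 at 75.4 ± 6.27 and Cyp51 at 67.0 ± 12.2 RPKM (SD, n = 4) came next, and did not differ beyond their spread. In WT crypts Ebp at 83.4 ± 15.99, Npc1l1 at 83.2 ± 19.6 and Hmgcs1 at 78.7 ± 15.7 RPKM (SD, n = 6) led within each other's spread. The lowest were Abca1 at 0.17 ± 0.01 RPKM in WT spheroids and Scap at 0.72 ± 0.13 and Acaca at 0.82 ± 0.17 RPKM in WT crypts.

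Other genes of these pathways, from 4 lists, were counted in the same fits. In crypts, where 24.5% of all genes were called, fatty acid supply and modification had 1 rise and 1 fall among 14 genes, or 14.3%. Me1, the malic enzyme that supplies reducing power, rose with a log2 change of 2.43 ± 0.55 (SE, adjusted p = 0.00947), and Lpin1 fell with one of -1.52 ± 0.26 (adjusted p = 0.00256). Non-sterol isoprenoid genes had 2 rises among 14, also 14.3%, Rabggta and Rabggtb, the subunits of the enzyme that prenylates Rab proteins, at 0.53 and 0.38. Sterol handling and LXR genes had 2 rises and 3 falls among 17, or 29.4%. Of these, Scarb1, a lipoprotein receptor, had a log2 change of 1.94, and Npc2, a lysosomal cholesterol carrier, one of -0.47. Npc1, at 0.60, and Nr1h3 and Lpcat3, at -1.15 and -0.55, were named after their values were seen. Genes of SREBP processing and sterol-regulated degradation had 2 falls among 9, or 22.2%, Rnf145, a ubiquitin ligase of the Scap system, at -1.21 and Erlin2 at -0.53. Without KO 4 to 6, Lpin1 alone of these 4 lists passed.

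In Caco-2, where 31.9% of all genes were called, fatty acid supply and modification had 8 falls and 1 rise among 14 genes, or 64.3%. GPAM, which starts glycerolipid synthesis, and ACSL5, which activates fatty acids, had log2 changes of -0.47 ± 0.04 and -0.50 ± 0.06 (SE). Sterol handling and LXR genes had 7 falls and 3 rises among 16, or 62.5%, with SCARB1 at -0.53 ± 0.03 and LIPA, the lysosomal acid lipase, at -0.52 ± 0.05 (SE). Genes of SREBP processing had 4 rises and 1 fall among 9, or 55.6%, with the SREBP-cleaving proteases MBTPS1 and MBTPS2 at 0.38 and 0.23. Non-sterol isoprenoid genes had 3 rises and 2 falls among 14, or 35.7%, with PGGT1B, a geranylgeranyl transferase subunit, at 0.57 and ICMT, a methyltransferase of prenylated proteins, at -0.13. FADS2, VLDLR, NR1H2, NPC1, RNF145, PGRMC1, ZMPSTE24 and RCE1 were the other rises, at 0.15, 0.36, 0.26, 0.18, 0.21, 0.15, 0.15 and 0.13, and were named after their values were seen, as were the falls of ERLIN1 and DHDDS, at -0.11 and -0.14. In spheroids 0 genes of the 4 lists were called by edgeR, with 6 at an unadjusted p below 0.05. Among those of smallest p in each list, Gpam and Acsl5 had log2 changes of -0.28 and -0.21, Zmpste24 and Rabggta 0.17 and 0.12, Scarb1 and Vldlr 0.23 and -0.49, and Erlin1 and Mbtps2 -0.39 and -0.09.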

How the data were processed

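The authors deposited raw read counts per gene for each sample, 37281821 to 103352863 in all per library. Per the submitters' processing notes, STAR, DESeq2 and mm10 were used, without versions, and the sources used here do not name the counting tool. Repeated entries with the same counts, 276 in each mouse table and 116 in the human table, were removed.

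Counts were tested per table with edgeR 4.0.16 (R 4.3.3; filterByExpr, TMM, robust quasi-likelihood), KO against WT or shFgfr1op against scramble. DESeq2 1.42.0, voom (limma 3.58.1), other filters and scalings, a correction for GC content and length and fits leaving out libraries were alternatives. Sex as a covariate in crypts was another. Scripts were tested on simulated data. The members and lists were chosen with earlier results of these data known. From each of 4 other lists the 2 genes of smallest p were named per comparison. Same-numbered libraries did not deviate together in spheroids or Caco-2, so the main fits have no replicate block.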

Additional observations from a re-analysis of the deposited data

Results flagged for a closer look

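In 132 groups of 4 to 6 libraries, 3 values stood farther from their neighbours than Dixon's 95% limit, and chance alone at 1 in 20 gives 6.6. Hmgcs1 had 498.9 CPM in crypt WT 5, while the other 5 WT crypt libraries lay between 306.3 and 375.4 CPM. Insig1 had 68.6 CPM in crypt KO 1, while the other 5 KO crypt libraries lay between 33.5 and 46.0 CPM. Soat2 had 48.1 CPM in the same library, crypt KO 1, while the other 5 lay between 20.4 and 25.9 CPM.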

How the results depend on the processing

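Over the alternatives run, values of single genes stayed on the same side of the threshold in 580 cases in crypts, with 19 gaining and 61 losing a call, in 353 in Caco-2, with 7 losing one, and in all 495 in spheroids and all 429 for the difference between crypts and spheroids, where no gene was called. The sign changed in 31 of 660 values in crypts, 7 of 360 in Caco-2, 52 of 495 in spheroids and 51 of 429 for the difference, each time in a gene called in neither fit. For WT spheroids against WT crypts Lss turned to -0.52 ± 0.22 (SE, adjusted p = 0.0338) with the GC and length correction, and the cause was not tested. Of the 33 genes in crypts, 5 rose with no filter on low counts, 5 fell by DESeq2 and 5 by voom, and 0 rose and 0 fell without KO 4 to 6, a set chosen after seeing the data. Leaving out 1 library gave 2 to 7 rises and 2 to 5 falls. Over all genes in crypts, voom called 3607 higher and 3572 lower, against 2290 and 1724 by edgeR. Without KO 4 to 6, 460 and 464 of 16924 were called. Leaving out 1 library gave 1476 to 2701 higher. Over all genes in spheroids, 30 higher and 7 lower, these were 100 and 54 with no filter, 310 and 267 by DESeq2, and 42 and 13 by voom. Leaving out 1 library gave 3 to 123 higher and 0 to 37 lower. For the difference between crypts and spheroids, 325 and 203 genes, no filter gave 183 and 90, a filter of 1 CPM 350 lower, and the fit without KO 4 to 6 gave 70 and 40. Leaving out 1 spheroid library gave 70 to 146 and 35 to 88, and no crypt library was left out singly there. With the replicate block, spheroids had 46 genes higher and 25 lower, 0 of the 33 among them, and Caco-2 kept counts of 4 and 18. No paired analysis was possible for crypts because their columns carry no replicate number of the labels.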
